A study of Mus musculus with 10 samples.

Results

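Chromatin accessibility was compared between mouse osteoblast cells given tumour necrosis factor alpha (TNFa) and cells not given it, over both states of a second ligand, bone morphogenetic protein 4 (BMP4). The unit of measurement was a window of 125 bp that the authors had called as open in each of their 4 lists. A window of the untreated list entered if every other list held a window on the same chromosome whose start differed by 62 bp or less, which gave 14722 of 26230 untreated windows. Of these, 14712 had enough reads to be tested. This rule uses the positions of windows and compares no levels between the groups. A window has a position in a list, however, only if it was called over background in that group. Windows open in some groups alone were thus left out, and a gene without a tested window may still have had open sites.

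The cells were MC3T3-E1, an established clonal line of mouse calvarial preosteoblasts, and the labels name no engineered allele. All 8 libraries came from cells kept for 30 min in medium with 2.5% fetal bovine serum before any ligand was added. The 4 groups of 2 libraries were untreated cells (none), cells given TNFa at 10 ng/ml, cells given BMP4 at 10 ng/ml for 3 h, and cells given both at these doses. The time in TNFa is uncertain: the treatment protocol puts it 30 min ahead of BMP4, and the labels of the TNFa samples say 3 h. The titles of the libraries given TNFa alone also carry the name p65 (the NF-kB subunit RelA), which the labels do not explain, and the titles of the libraries given both ligands do not. The names that the file headers give to all 8 libraries share a prefix, and the headers do not call it a batch. Whether replicates 1 and 2 are separate cultures is not stated, and the p-values below therefore cover the variation between libraries alone, part or all of it possibly technical.

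The assay was ATAC-seq, in which a transposase cuts accessible DNA and the cut fragments are sequenced. The libraries held from 16486612.5 to 30051723 tags (aligned reads, as totalled by the authors), of which 3.56% to 5.74% lay in the tested windows. Each of the 4 libraries with TNFa held fewer tags than any library without it (at most 21757662 against at least 26048595), so depth and TNFa cannot be told apart by group. Levels are given as normalised tags, the tags in a window after scaling every library to a common size. The median window held 33.8 to 59.5 tags per library at equal total depth, against 3.36 and 3.40 in the authors' background libraries of sonicated DNA. Among markers of cell type, 9 of 10 osteoblast genes had a window in the untreated list, with open promoters at Runx2, Col1a1, Col1a2, Cdh11 and Dlx5. Markers of other cell types were open as well: 5 of 6 chondrocyte genes (28 windows, with promoters of Sox6 and Sox9), 3 of 5 adipocyte genes (6 windows, with the Cebpa promoter) and 3 of 4 endothelial genes (10 windows). Of 6 haematopoietic markers 1 had a window, and of 4 muscle markers none did. In bulk cells, fewer cells with an open site and less opening per cell cannot be told apart.

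TNFa binds the receptor TNFR1, whose adaptor and ubiquitin-ligase complex activates the IKK kinases. These mark the inhibitor IkBa for destruction, which frees NF-kB dimers such as p65-p50 to enter the nucleus and bind kB sites at genes for chemokines, adhesion molecules, survival factors and the pathway's own inhibitors. In osteoblasts TNFa is known as an inflammatory signal that opposes differentiation, whereas BMP4 acts through SMAD proteins and promotes it.

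Windows at gene starts can be read as sequence, and some of those called with TNFa hold a kB site. RefSeq promoters (GRCm38.p6, the assembly of mm10; from 250 bases before to 50 after a start) held 3185 of the tested windows whole, 9 of them higher with TNFa and 3 lower. They were searched on both strands for the 10-base kB consensus, called the kB decamer, which 5.09% of the 3185 windows held. The decamer was in 3 of the 9 higher windows (Nfkb2, Niban2 and the window next to Mt2) and in 0 of the 3 lower ones. These 3 windows are printed with Il6st and Tceal8, a higher and a lower window without the decamer, all 5′ to 3′ on the strand of the gene whose promoter holds them. Capitals mark the kB decamer in either orientation, and no more than 30 bases past the start are shown.
Nfkb2, chr19:46305618-46305724, plus strand: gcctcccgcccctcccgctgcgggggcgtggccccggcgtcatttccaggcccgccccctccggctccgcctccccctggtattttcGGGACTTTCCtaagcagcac
Niban2, chr2:32876048-32876163, plus strand: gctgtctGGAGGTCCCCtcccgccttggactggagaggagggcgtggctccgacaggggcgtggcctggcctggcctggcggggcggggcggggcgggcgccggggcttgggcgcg
Mt2 (in the promoter of Gm39227), chr8:94171679-94171803, minus strand: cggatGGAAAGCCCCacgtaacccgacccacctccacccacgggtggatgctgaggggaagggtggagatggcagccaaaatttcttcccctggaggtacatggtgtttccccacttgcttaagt
Il6st, chr13:112463974-112464098, plus strand: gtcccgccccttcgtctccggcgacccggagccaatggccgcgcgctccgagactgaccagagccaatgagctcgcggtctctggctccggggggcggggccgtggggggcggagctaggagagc
Tceal8, chrX:136172249-136172373, minus strand: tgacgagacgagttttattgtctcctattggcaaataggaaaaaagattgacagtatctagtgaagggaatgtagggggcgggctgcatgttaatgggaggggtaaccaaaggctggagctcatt
The decamer of Nfkb2 begins 10 bases after the RefSeq start. The Tceal8 window holds 1 copy of the TEAD letters GGAATG, which 4.96% of the promoter windows held. Median GC content was 64.8% over all promoter windows, 68.8% over the higher and 50.4% over the lower ones. The other letters searched (AP-1, TGANTCA; RUNX, TGTGGT; SMAD, GGCGCC and CAGAC; CRE, TGACGTCA; ETS, CCGGAAGT; IRF, GAAANNGAAA; E-box, CAGCTG) were each in at most 2 of the 9 higher windows. GGAATG aside, none of these was in a lower one.

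With replicate number and BMP4 as terms, 344 windows (2.34% of those tested) differed with TNFa at an adjusted p under 0.05 in limma. Of these, 160 (1.09%) were higher and 184 (1.25%) lower. The higher windows lay nearest to 137 genes, with the smallest p at Pdgfb, Mapt, Gdnf and Herc1. Lif, Nfkb2, Nfkbia and Nfkbiz were also among them and are named from the gene lists below. The lower ones lay nearest to 178 genes, with the smallest p at Marchf6, Speer5-ps1, Dlc1, Tom1l2, Vgll4 and Panx3. Runx2, Smad5 and Sox6 are named from those lists, where lower windows were 1 of 51 for osteoblast genes, 1 of 31 for BMP targets and SMADs and 1 of 11 for chondrocyte markers. Changes are differences of log2(normalised tags + 2) with their standard error over 4 libraries with TNFa and 4 without, and this scale understates the change of windows with few tags. The median change was 1.50 in the higher windows and -1.44 in the lower ones, against a median of -0.00 over all tested windows. All 4 libraries with TNFa lay above all 4 without in 265 windows (1.8%), 83 of them called higher, and below them in 387 windows (2.63%), 108 of them called lower.

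These calls rest on the replicate term and on single libraries. Without that term 0 windows passed (950 had an unadjusted p under 0.05, against 3434 with it), and 0 passed when the share of tags in windows was added as a covariate, a fit chosen after seeing the data (903 unadjusted). None passed without replicate 2 of TNFa or replicate 2 of BMP4 either (2121 and 1666 unadjusted). With single other libraries left out, 13 passed without replicate 1 of TNFa, 24 without replicate 2 of the untreated cells, 68 without replicate 1 of BMP4 and 133 without replicate 2 of both ligands. Leaving out replicate 1 of the untreated cells or of both ligands raised the count to 1161 and 854. In each of these fits every one of the 344 windows kept its sign. They were chosen on these same libraries, which all but fixes the sign, and dropping the replicate term leaves each change as it was. The kept signs are therefore a description only. Replicate 2 stood apart from replicate 1 in several groups, with the untreated and BMP4 replicates 2 at 95.1 and 96.6 on a first principal component that held 63.1% of the variance and the other 6 libraries between -74.5 and 42.2. The called windows moved with that axis, since replicate 2 was lower than replicate 1 by a median of 0.88 log2 units in the higher windows (-0.88) and higher by 0.84 in the lower ones, against 0.05 over all windows. The part of this axis in the result was not tested.

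**Figure D1:**
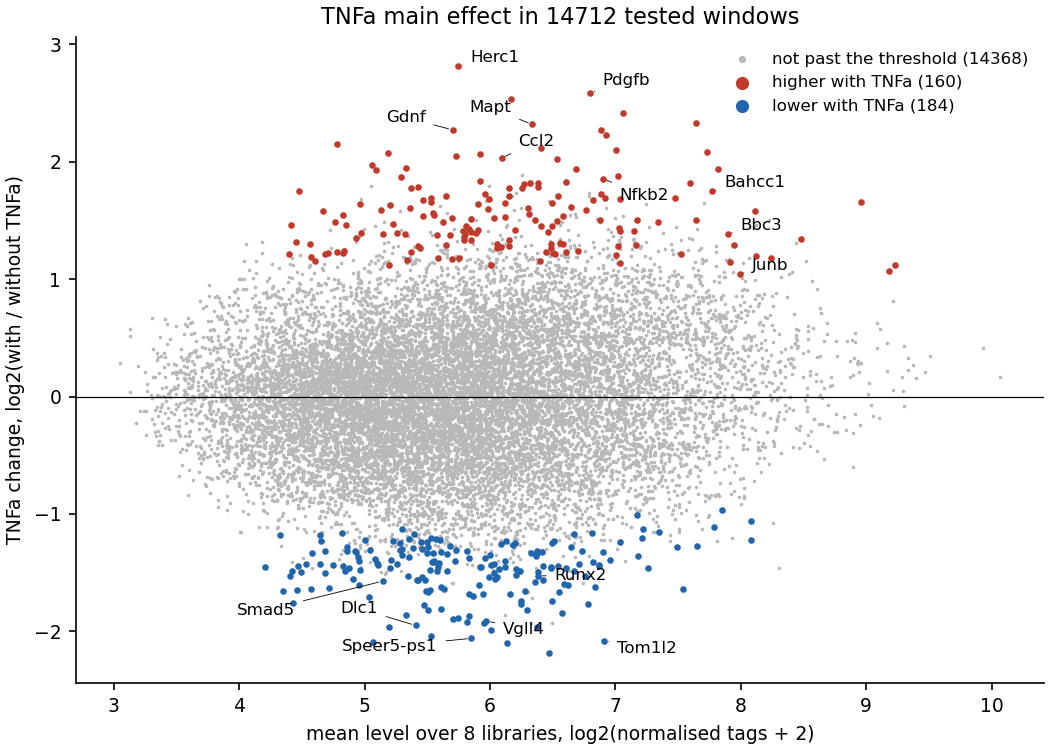
TNFa change, as log2 of the level with over the level without TNFa, against the mean level over 8 libraries for each of 14712 tested windows. Red points (160) and blue points (184) passed an adjusted p under 0.05, with changes of at least 1.04 and at most -0.97.

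The window with the smallest p lay 11.3 kb upstream of the start of Pdgfb, which encodes the B chain of platelet-derived growth factor, a mitogen of mesenchymal cells. This intergenic window (chr15:80026235-80026359, mm10) held 28.2 and 31.5 in the untreated libraries, 38.5 and 21 with BMP4, 226 and 129 with TNFa and 220.4 and 181 with both. All 4 libraries with TNFa lay well above the 4 without, by 2.58 ± 0.28 log2 units (adjusted p = 0.0068). The windows matched here differed in start by up to 61 bp between lists. Such offsets were not particular to Pdgfb: they reached 60 bp at 1700028E10Rik, 58 bp at the lower Runx2 window and 42 bp at Mapt and Panx3. The median of the largest offset was 14 bp in the higher windows and 13 bp in the lower ones, against 8 bp over all tested windows. Its part in the changes was not tested. The other tested window of Pdgfb, in an intron, did not pass, at -0.38 ± 0.29 (adjusted p = 0.441).

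Mapt, which encodes the microtubule-binding protein tau, had an intronic window (chr11:104303716-104303840) 72.3 kb downstream of its start. It held 25.7 and 19.1 in the untreated libraries, 34 and 21 with BMP4, 108 and 98.7 with TNFa and 177 and 147 with both. The libraries with both ligands were the highest, and the change was 2.32 ± 0.27 (adjusted p = 0.0068). Next came Gdnf, a neurotrophic factor that signals through RET, whose window 23.6 kb downstream of its start held 18 and 11.7 in the untreated libraries, 24.9 and 8.89 with BMP4, 92.6 and 46.9 with TNFa and 127 and 70.7 with both. Its change was 2.27 ± 0.27, and a second Gdnf window beside it was also higher, by 1.81.

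The largest change of all tested windows, 2.81 ± 0.35, was in an intergenic window assigned to Herc1, a giant ubiquitin ligase, 73.5 kb upstream of its start. By RefSeq the closest protein-coding gene was Dapk2, a death-associated kinase, 4.66 kb away. Its levels were 21.4 and 4.40 in the untreated libraries, 20.4 and 6.35 with BMP4, 105 and 68.6 with TNFa and 83.7 and 104 with both. The libraries with TNFa were all above those without. Bahcc1, a chromatin protein with a BAH domain, had an intronic window with high levels throughout, 136 and 124 in the untreated libraries, 77 and 62.2 with BMP4, 454 and 333 with TNFa and 299.9 and 242 with both. This window changed by 1.75 ± 0.22. A window assigned to the transcript 1700028E10Rik lies by RefSeq inside Stard13, which encodes a START-domain protein, and changed by 2.42 ± 0.31. There the BMP4 replicate 1 (114) exceeded the TNFa replicate 2 (112), so the groups overlapped.

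Rassf6, a Ras-association protein, was the nearest gene to a pair of adjacent intergenic windows that changed by 2.07 and 2.15. They lie 69.3 and 69.6 kb from Cxcl5, a neutrophil chemokine. The first held 16.2 and 7.33 in the untreated libraries, 20.4 and 6.35 with BMP4, 66.8 and 37.3 with TNFa and 73.9 and 46.7 with both, without overlap. A window assigned to Llph, whose product is nucleolar, changed by 2.12 ± 0.28. By RefSeq that window lay 11.1 kb from Llph, 18.3 kb from Tmbim4 and 41 kb from Irak3, an inhibitor of Toll-like receptor signalling. Tlr2 itself, the receptor for bacterial lipoproteins, had a pair of windows 3.73 kb upstream of its start and nearer, which changed by 2.06 and 2.53. In the first, BMP4 replicate 1 (51) lay above TNFa replicate 2 (40.9).

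At promoters the clearest window was that of Niban2, a plasma-membrane-associated protein with a pleckstrin homology domain, whose kB decamer is printed above. It held 40.2 and 32.2 in the untreated libraries, 40.8 and 27.9 with BMP4, 132 and 120.3 with TNFa and 138 and 122 with both. Replicates were close in every group, and the change was 1.82 ± 0.26 (adjusted p = 0.0118). The window of Mt2, a metallothionein that binds zinc, lay 877 bp upstream of its start and held 50.5 and 55.7 in the untreated libraries, 36.2 and 48.3 with BMP4, 151 and 167 with TNFa and 131 and 147 with both. It changed by 1.62 ± 0.25, with no overlap. Wincr1, a long non-coding RNA gene, had an intronic window that changed by 1.78 ± 0.26, and D030025P21Rik had 3 adjacent windows inside an intron of Ltbp2, a matrix protein, of which the middle one changed by 2.22 ± 0.35. In that window BMP4 replicate 1 (144) lay above TNFa replicate 2 (78.2).

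**Figure D2:**
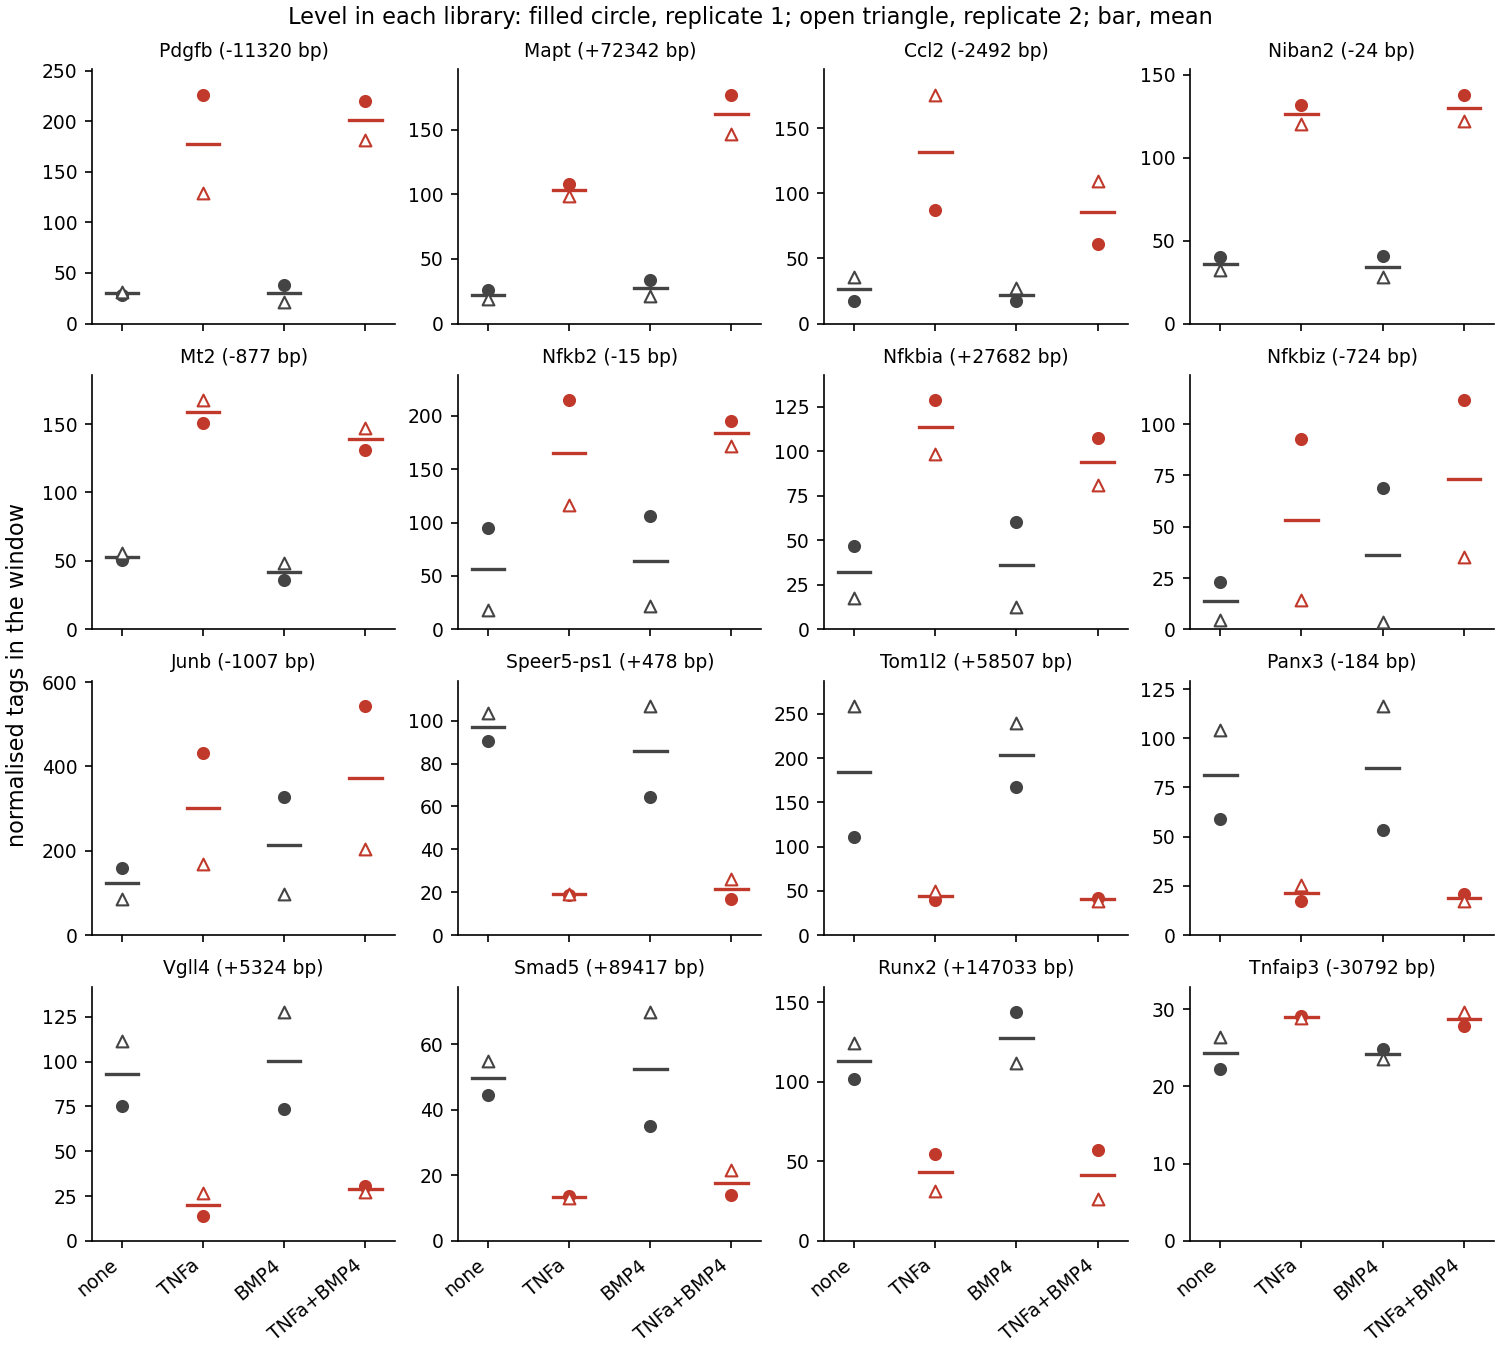
Normalised tags in each library for 16 windows, titled by gene and by the distance in bp to its start (minus upstream); circles are replicate 1, triangles replicate 2 and bars the mean of 2, with TNFa groups in red. For Mapt, Niban2 and Mt2 the replicates of a group lie close together beside the gap between groups, whereas for Nfkb2, Nfkbiz and Junb replicate 1 lies above replicate 2 in every group.

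Among the pathway's own inhibitors, 3 of 20 windows were higher and 0 lower, against 1.09% and 1.25% of all tested windows. Above zero lay 14 of the 20, against 49.6% of all, with a median of 0.47 against -0.00. These shares over all windows are the background for every list below. The windows belonged to 10 of the 14 genes listed. Nfkbia, which encodes IkBa, supplied a pair of neighbouring intergenic windows 27.7 kb downstream of its start. The first (chr12:55464903-55465027) held 47 and 17.6 in the untreated libraries, 60.0 and 12.7 with BMP4, 129 and 98.7 with TNFa and 107 and 80.9 with both, and the second 59 and 10.3 in the untreated libraries, 104 and 8.26 with BMP4, 154 and 51.7 with TNFa and 198 and 66.1 with both. They changed by 1.77 ± 0.33 and 1.78 ± 0.33 (adjusted p = 0.0264 for both). The first did not overlap between groups, whereas in the second BMP4 replicate 1 lay above replicate 2 of TNFa and of both ligands. The other Nfkbia windows tested, 26.2 kb downstream of the start and 45.8 kb downstream of it, were at 0.61 ± 0.29 and 0.40 ± 0.25 and did not pass.

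Nfkbiz, whose product IkBz binds NF-kB in the nucleus, had a promoter window that was higher by 1.66 ± 0.33 (adjusted p = 0.03). Its levels, 23.1 and 4.40 in the untreated libraries, 69.1 and 3.81 with BMP4, 92.6 and 14.4 with TNFa and 112 and 35.3 with both, fell into order only within a replicate number, since replicate 2 of every group was low. Tnfaip3, which encodes the ubiquitin-editing inhibitor A20, had 1 tested window, at 22.2 and 26.4 in the untreated libraries, 24.9 and 23.5 with BMP4, 29.1 and 28.9 with TNFa and 27.9 and 29.6 with both. All 4 libraries with TNFa were above the 4 without, yet by only 0.24 ± 0.25, and it did not pass (adjusted p = 0.599). Zc3h12a, a ribonuclease that destroys cytokine transcripts, was at 1.15 ± 0.32 (adjusted p = 0.0777).

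Of 22 windows of NF-kB subunits and kinases, 1 was higher and 1 lower, 9 lay above zero and the median was -0.16. The higher one was the Nfkb2 promoter with the kB site printed above; Nfkb2 encodes p100, the precursor of p52. It held 94.9 and 18.3 in the untreated libraries, 106 and 22.2 with BMP4, 214 and 117 with TNFa and 195 and 172 with both and changed by 1.85 ± 0.35 (adjusted p = 0.027). The 4 libraries with TNFa were above the 4 without, and replicate 2 was below replicate 1 in each group. The lower one was an intergenic window far upstream of Tab2, an adaptor of the TAK1 kinase, at -1.33 ± 0.32 (adjusted p = 0.0493). An intronic window of Nfkb1, which encodes p105 and p50, was at -0.90 ± 0.33 and did not pass (adjusted p = 0.142).

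None of the 14 windows of the TNF receptor complex passed, although 10 lay above zero, with a median of 0.30. The smallest p was in an intron of the adaptor Traf2, at 0.98 ± 0.27 (adjusted p = 0.0777). Sharpin, a subunit of the linear ubiquitin ligase, and the adaptor Traf5 had promoter windows at 1.22 ± 0.40 and 1.10 ± 0.37, neither past the threshold. Replicate 2 was far below replicate 1 in every group at Traf5, with 77.8 and 8.06 in the untreated libraries, 214 and 6.99 with BMP4, 158 and 18 with TNFa and 198 and 49 with both. Tnfrsf1a, Tradd, Traf1 and Birc3 had no tested window.

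Chemokine and cytokine genes held the most higher windows of the 20 lists: 5 of 23 were higher (1.09% over all tested windows), 0 lower (1.25%), 21 lay above zero (49.6% over all) and the median was 0.69 (-0.00). Replicate 2 lay below replicate 1 in these windows by a median of 0.76 log2 units (-0.76), and the part of that in the list's value was not tested. Ccl2, the monocyte chemoattractant, had its nearest called window 2.49 kb upstream of the start (chr11:82033023-82033147). It held 17.1 and 35.9 in the untreated libraries, 17 and 27.3 with BMP4, 87.4 and 176 with TNFa and 61.4 and 109 with both. The groups did not overlap, replicate 2 was above replicate 1 in each, and the change was 2.03 ± 0.27 (adjusted p = 0.0068). A window 23.6 kb upstream of the start changed by 1.68 ± 0.25, again with no overlap, at 104 and 43.2 in the untreated libraries, 65.7 and 36.2 with BMP4, 276 and 138 with TNFa and 227 and 145 with both. The Ccl2 promoter window itself did not pass, at 0.30 ± 0.29 (adjusted p = 0.561). It held 54.7 and 129 in the untreated libraries, 26 and 117 with BMP4, 75.4 and 142 with TNFa and 53 and 90.0 with both.

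Lif, a cytokine of the interleukin-6 family, had adjacent windows 42.4 kb downstream of its start and nearer, which changed by 1.93 ± 0.32 and 1.41. The first held 41.1 and 24.2 in the untreated libraries, 98.5 and 20.3 with BMP4, 185 and 91.4 with TNFa and 195 and 154 with both, and BMP4 replicate 1 lay above TNFa replicate 2. Ccl5, a T-cell chemokine, had a window 4.35 kb upstream of its start that held 47 and 66 in the untreated libraries, 32.8 and 55.9 with BMP4, 105 and 186 with TNFa and 87.9 and 121 with both. It changed by 1.26 ± 0.26 (adjusted p = 0.0327), with no overlap. The promoter of Il6st, which encodes gp130, the shared receptor subunit for interleukin-6 and Lif, was higher by 1.50 ± 0.31 (adjusted p = 0.0352). It is named for its sequence above, after its values were seen. Its levels were 152 and 38.9 in the untreated libraries, 95.1 and 38.8 with BMP4, 259 and 138 with TNFa and 212 and 204 with both, with untreated replicate 1 above TNFa replicate 2.

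Adhesion genes gave 0 called of 21 windows, 5 above zero and a median of -0.13. Vcam1, an endothelial and stromal ligand of integrins, had an intronic window at -0.13 ± 0.38 (adjusted p = 0.855). Its levels were low and mixed, 7.70 and 22.7 in the untreated libraries, 17 and 12.1 with BMP4, 15.4 and 8.42 with TNFa and 22.3 and 7.98 with both. Cd44, the hyaluronan receptor, and the integrin subunit Itgb3 were at -0.91 ± 0.28 and -1.02 ± 0.32 (adjusted p = 0.0977 and 0.101). Icam1 had no tested window.

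Genes that hold back cell death had 12 of 17 windows above zero, a median of 0.15 and 0 called. Bcl2l1, which encodes Bcl-xL, was at 0.49 ± 0.26, the stress gene Gadd45b at 0.44 ± 0.25 and Mcl1 at -0.60 ± 0.31, all at promoters and none past the threshold. Among death effectors 1 of 23 was higher, with a median of 0.01. It was an intronic window of Bbc3, which encodes the BH3-only protein PUMA. This window held 216 and 60.8 in the untreated libraries, 265 and 50.8 with BMP4, 478 and 183 with TNFa and 365 and 272 with both and changed by 1.38 ± 0.29 (adjusted p = 0.0354). Untreated and BMP4 replicates 1 lay above TNFa replicate 2. Bid, another BH3-only protein, was at -0.94 ± 0.25 (adjusted p = 0.0701) and did not pass.

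Interferon-response genes gave 10 of 15 windows above zero, a median of 0.52 and 0 called. A window assigned to Irf1, the interferon regulatory factor, came nearest: it held 159 and 131 in the untreated libraries, 180.1 and 112 with BMP4, 312 and 188 with TNFa and 346 and 249.6 with both, with no overlap, and changed by 0.89 ± 0.22 (adjusted p = 0.0541). The promoter of Tap1, an antigen-peptide transporter, was at 1.09 ± 0.33 (adjusted p = 0.0968), also without overlap.

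The AP-1 subunits had 1 higher window of 33, 13 above zero and a median of -0.04. It lay 1.01 kb upstream of the start of Junb, held 159.9 and 85 in the untreated libraries, 327 and 97.8 with BMP4, 432 and 169.7 with TNFa and 543 and 204 with both and changed by 1.04 ± 0.22 (adjusted p = 0.0381). Within each replicate number the TNFa libraries were higher, but replicate 1 of BMP4 exceeded replicate 2 of TNFa and of both ligands. Fos, at 0.90 ± 0.27, and Maff, at 0.87 ± 0.30, did not pass. Early growth genes gave 0 called of 65, a median of 0.11 and 38 above zero. The Klf2 promoter was at -0.84 ± 0.22, a Klf4 window at 0.81 ± 0.23 and the Egr2 promoter at 1.18 ± 0.35 (adjusted p = 0.0683, 0.0806 and 0.0929). Scaled by total tags, which shifted the median of all windows to -0.15, the medians of the early growth and death effector lists lay below zero.

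Among the lower windows, those of Marchf6 and the pseudogene Speer5-ps1 had the smallest p. The latter lies in an intron of that pseudogene (chr10:44170863-44170987), 22 kb by RefSeq from Crybg1, and held 90.7 and 103 in the untreated libraries, 64.5 and 107 with BMP4, 18.9 and 19.3 with TNFa and 16.7 and 26.2 with both. It changed by -2.06 ± 0.27 (adjusted p = 0.0068). Marchf6, a ubiquitin ligase of the endoplasmic reticulum, had a window 5.2 kb upstream of its start that changed by -2.04 ± 0.27. Its levels were 55.6 and 93.1 in the untreated libraries, 38.5 and 104 with BMP4, 13.7 and 21.7 with TNFa and 8.37 and 19.4 with both, with no overlap and replicate 2 above replicate 1 in each group.

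Dlc1, which also encodes a START-domain protein, had an intergenic window at 39.3 and 91.6 in the untreated libraries, 38.5 and 95.3 with BMP4, 10.3 and 16.8 with TNFa and 11.2 and 20.5 with both, which changed by -1.95 ± 0.26. An intronic window of Tom1l2, an endosomal adaptor, held 111 and 259 in the untreated libraries, 168 and 239 with BMP4, 39.4 and 49.3 with TNFa and 41.8 and 38.8 with both. The libraries with TNFa spanned only 38.8 to 49.3, and the change was -2.08 ± 0.29 (adjusted p = 0.00909). Panx3, a channel-forming pannexin of osteoblasts and chondrocytes, fell at its promoter (chr9:37669344-37669468). That window held 59 and 104 in the untreated libraries, 53.2 and 116 with BMP4, 17.1 and 25.3 with TNFa and 20.9 and 17.1 with both and changed by -1.88 ± 0.29 (adjusted p = 0.0159).

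The other lower windows named by their rank were distal, with changes from -2.10 at Wdr11 to -1.55 at Myo1e, a class I myosin. They included a window 15.8 kb upstream of Plin2, the lipid-droplet coat protein, at -1.82 ± 0.29, and an intronic window of Tram2, which acts in collagen synthesis, at -1.66 ± 0.27. Mrps6, a mitochondrial ribosomal protein, was the nearest gene to a window at -1.74 ± 0.28. Nat3 (at -1.92 ± 0.32), Gm5069 (at -1.70 ± 0.28) and Gm14057 (at -1.82 ± 0.30) completed them. Only the Wdr11 window overlapped between groups, as TNFa replicate 2 (62.6) lay above untreated and BMP4 replicates 1 (47.9 and 31.7).

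BMP targets and SMADs had 1 lower window of 31, 11 above zero and a median of -0.18. It was an intronic window assigned to Smad5, a transducer of BMP signals, whose start was the nearest, 89.4 kb away. The intron is annotated by transcript, without the name of its gene, so it may not be one of Smad5. The window held 44.5 and 55 in the untreated libraries and 35.1 and 69.9 with BMP4. With TNFa it held 13.7 and 13.2, and with both 13.9 and 21.7. It changed by -1.57 ± 0.28 (adjusted p = 0.0233), with no overlap. Windows of Id3, an inhibitor of bHLH factors and a BMP target, and Atoh8 were at 0.91 ± 0.26 and -0.97 ± 0.28 and did not pass.

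Osteoblast genes likewise had 1 lower window, of 51, with 19 above zero and a median of -0.10. It lay in an intron assigned to Runx2, the master transcription factor of osteoblasts, 147 kb from its start (chr17:44589081-44589205). It held 102 and 125 in the untreated libraries, 144 and 112 with BMP4, 54.9 and 31.3 with TNFa and 57.2 and 26.2 with both and changed by -1.53 ± 0.29 (adjusted p = 0.0277). The groups did not overlap. A window 143 kb from the start was at -1.12 ± 0.31 (adjusted p = 0.0751), also without overlap, and a further one 148 kb from it at -0.76 ± 0.30. An intronic window 75.9 kb from the start lay above zero, at 0.87 ± 0.28 (adjusted p = 0.105), and did not pass. One 1.44 kb upstream was at 0.02 ± 0.43. The Runx2 promoter was at -0.00 ± 0.28 (adjusted p = 0.998), with 121 and 103 in the untreated libraries, 94 and 104 with BMP4, 122 and 129 with TNFa and 62.8 and 123 with both. Pth1r, the parathyroid hormone receptor, and Ibsp, bone sialoprotein, were at -1.33 ± 0.38 and -0.92 ± 0.29 and did not pass.

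The YAP and TEAD pathway had 1 higher and 2 lower windows of 40, 19 above zero and a median of -0.03. Both lower ones lay in introns of Vgll4, a TEAD cofactor that competes with YAP. The first held 75.3 and 111 in the untreated libraries, 73.6 and 128 with BMP4, 13.7 and 26.5 with TNFa and 30.7 and 27.4 with both, the second 54.7 and 164 in the untreated libraries, 43 and 168 with BMP4, 17.1 and 73.4 with TNFa and 23.7 and 30.8 with both. Their changes were -1.91 ± 0.29 and -1.47 ± 0.32 (adjusted p = 0.0159 and 0.0385), and the first alone kept the groups apart. The Vgll4 promoter was at 0.08 ± 0.38 (adjusted p = 0.921). Of the other 5 tested Vgll4 windows, none of which passed, 3 lay above zero, at 0.48 ± 0.30, 0.43 ± 0.30 and 0.19 ± 0.33, and 2 below, at -0.79 ± 0.34 and -0.16 ± 0.28. The higher window of the list lay 5.99 kb upstream of Ccn2, which encodes connective tissue growth factor, and changed by 1.42 ± 0.32 (adjusted p = 0.0408). It held 30.8 and 11 in the untreated libraries, 117 and 14 with BMP4, 75.4 and 31.3 with TNFa and 223 and 69.5 with both. Lats2, the kinase that restrains YAP, was at -0.83 ± 0.22 (adjusted p = 0.0722).

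In the PDGF list, 1 of 7 windows was higher (Pdgfb, above) and the median was 0.37. Pdgfa, the A chain, was at 0.73 ± 0.28, and the promoter of the receptor Pdgfra at 0.45 ± 0.36. Matrix proteases and inhibitors gave 26 of 34 windows above zero, a median of 0.16 and 0 called, with the promoter of Timp1, a metalloprotease inhibitor, at 1.04 ± 0.28 and an intron of Mmp14 at 0.98 ± 0.26. Among chondrocyte markers 1 of 11 windows was lower, an exon window of the transcription factor Sox6 at -1.63 ± 0.32 (adjusted p = 0.0282), and the median was -0.35. Windows of adipocyte (4), haematopoietic (1) and muscle or endothelial (4) markers gave 0 called. Of 35 housekeeping windows 0 were called, but 24 lay above zero and their median was 0.19, with replicate 2 below replicate 1 by a median of 0.50 (-0.50 log2). The promoter of Polr2a, the large subunit of RNA polymerase II, reached 1.50 ± 0.36 (adjusted p = 0.0507), at 276 and 38.1 in the untreated libraries, 489 and 41.9 with BMP4, 471 and 185 with TNFa and 572 and 303 with both. That window, like those of Nfkb2, Nfkbiz and Traf5, was lowest in replicate 2 of the untreated and BMP4 cells, and the part of those libraries in the list values was not tested.

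**Figure D3:**
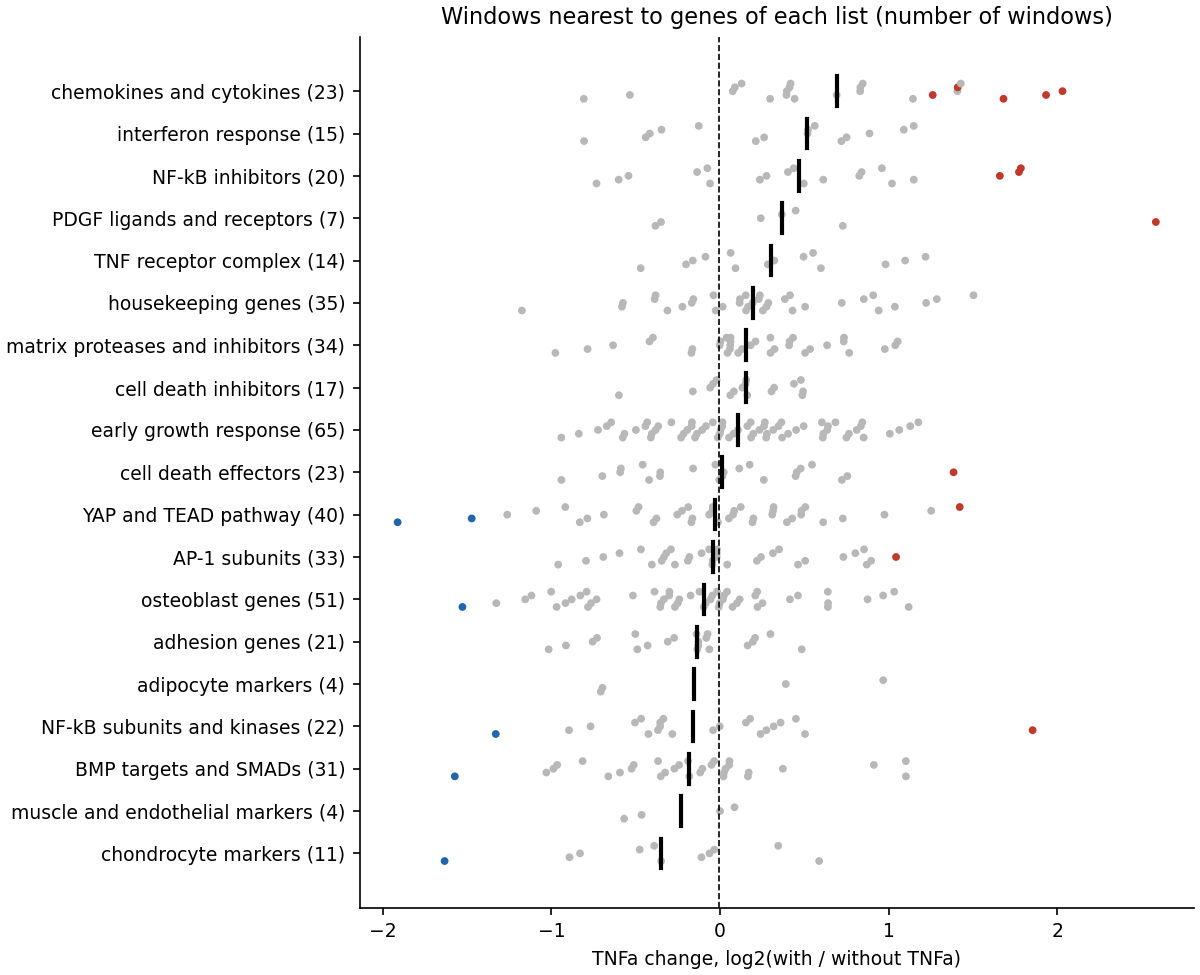
TNFa change (log2) of each tested window nearest to a gene of each list, with the number of windows in brackets; black bars are list medians, the dashed line the median of all tested windows, red and blue points windows called higher and lower. The chemokine list has the highest median (0.69) and 5 red points, and the housekeeping list lies at 0.19 with none.

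Most called windows lay outside promoters. The median distance to the nearest start was 2.26 kb over all tested windows, 23.3 kb over the higher and 31 kb over the lower ones. Promoters made up 40.7% of tested windows, 11.2% of the higher (18) and 3.8% of the lower (7). Introns made up 27.2%, 41.2% and 48.9%, and intergenic DNA 27.9%, 45% and 44%. Put the other way, 0.301% of promoter windows were called higher and 0.117% lower, against 1.76% and 1.97% of intergenic windows. The median change of promoter windows was 0.04 and of intergenic windows -0.04.

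**Figure D4:**
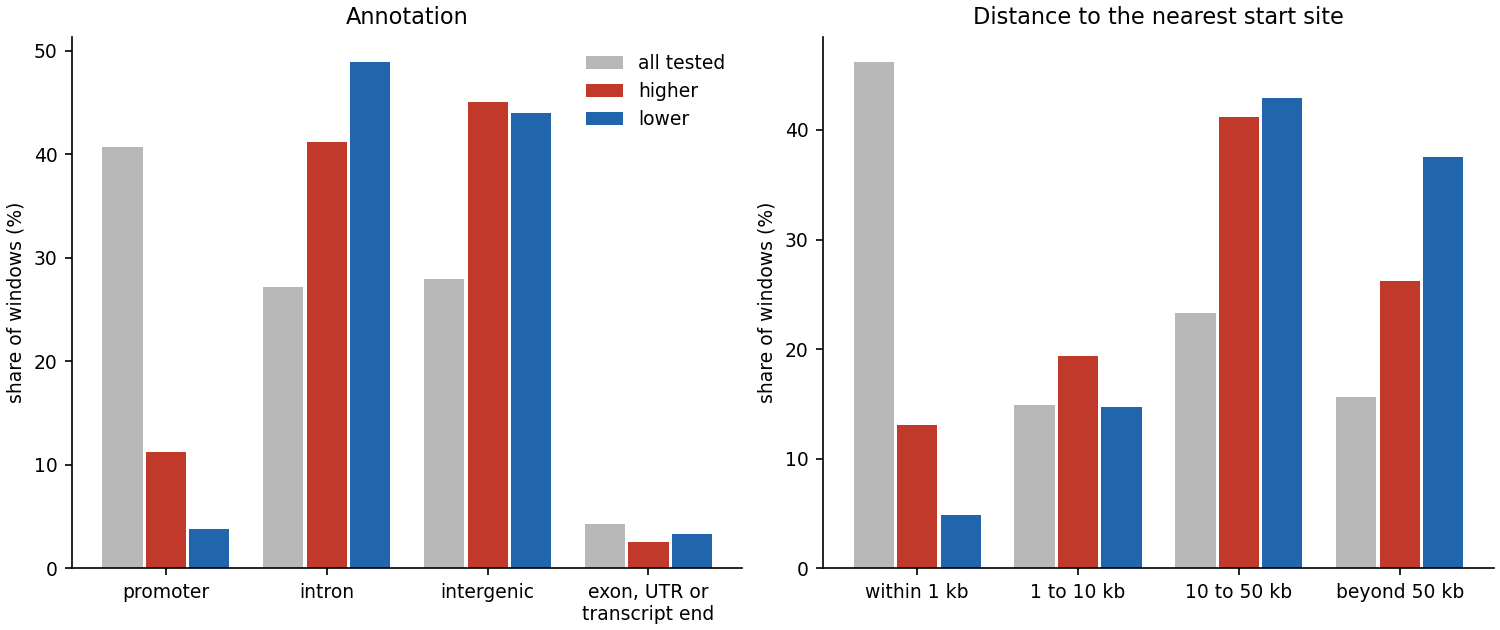
Share of all tested (grey), higher (red) and lower (blue) windows by annotation and by distance to the nearest gene start. Promoters hold 40.7% of tested windows but 11.2% and 3.8% of higher and lower ones, and windows beyond 10 kb hold most of both called classes.

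Some higher windows also lay close together. Joined over gaps of up to 5000 bp, the 160 higher windows formed 140 loci, 18 of which held 2 or more windows, among them those of Tlr2, Lif, Nfkbia, Gdnf, Rassf6 and the microRNA gene Mir147. The 184 lower windows formed 184 loci, none with 2. Windows of 1 locus share their DNA and are not replicates. How often tested windows lie this close to one another is not given here, so these counts describe the called windows alone. Within 100 kb of 74 genes of the NF-kB, TNF receptor, chemokine and adhesion lists lay 305 of the tested windows (2.07%), 13 of the higher (8.12%) and 0 of the lower. Besides those named above, these were windows assigned to Eps8l3, 90.3 kb from the macrophage growth factor gene Csf1, and to Ehbp1l1, 77 kb from Rela, which encodes p65. Windows assigned to Tnfaip2, a TNF-induced gene (at 1.33 ± 0.28), and to Nos2, the inducible nitric oxide synthase (at 1.12 ± 0.27), were also among the higher ones; these are named after their values were seen.

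The TNFa change could be followed in each BMP4 state. Between untreated cells and TNFa alone 0 windows passed (0%), with 884 at an unadjusted p under 0.05 in limma and 813 with voom weights. Between BMP4 alone and both ligands 0 passed as well (0%), with 1498 and 1456. No window passed the test of the difference between the states (0%, 16 unadjusted and 15 with voom). With no difference at all, a share of 0.05 of the windows would fall under that limit, and 16 of 14712 is far below it. The test was therefore conservative here, and the reason was not tested. That no window passed does not show that the states were alike. The standard error of that difference was 0.67 log2 units for Pdgfb, whose change was 2.44 ± 0.48 without BMP4 and 2.73 ± 0.48 with it.

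The state without BMP4 uses the libraries with p65 in their titles, and the state with BMP4 does not. The Ccl2 window nearest the start changed by 2.23 ± 0.46 and 1.83 ± 0.46 in the 2 states, Nfkb2 by 1.85 ± 0.54 and 1.85 ± 0.54, Nfkbia by 1.89 ± 0.52 and 1.66 ± 0.52, Mapt by 2.12 ± 0.46 and 2.51 ± 0.46. Over the higher windows the medians were 1.45 without and 1.57 with BMP4, and over the lower ones -1.41 and -1.46. These medians describe windows chosen on the mean of both states. Over all 14712 windows the change had the same sign in both states in 77.6%, with a correlation across windows of 0.768. No library is shared between the states, but depth and replicate number are.

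The smallest p for a difference between states were at 4930435F18Rik, at Fosb, an AP-1 subunit, and at Rnf144b, a ubiquitin ligase. The window assigned to Fosb is intergenic, 8.79 kb downstream of its start, and is annotated as a tRNA sequence. Its change was 1.06 ± 0.75 without and -1.72 ± 0.75 with BMP4. The window held 6.84 and 18.3 in the untreated libraries, 54.4 and 20.3 with BMP4, 30.9 and 21.7 with TNFa and 34.9 and 1.14 with both, and replicate 2 of both ligands, at 1.14, was its lowest library. Rnf144b was at -0.71 ± 0.53 and 1.07 ± 0.53, and 4930435F18Rik at -0.44 ± 0.45 and -1.99 ± 0.45.

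Set side by side by replicate number rather than by BMP4 state, the changes were less alike. The TNFa change within replicates 1 and within replicates 2 had the same sign in 56.98% of all windows, with a correlation across windows of 0.262. In the higher windows its median was 1.13 in replicates 1 and 1.80 in replicates 2, and in the lower ones -1.13 and -1.73. Pdgfb was at 2.69 and 2.48, Mapt at 2.15 and 2.48 and Niban2 at 1.69 and 1.94. The values at Nfkb2 were 1.01 and 2.70, and at Nfkbia 1.12 and 2.43. These windows and medians were chosen on the mean of both replicate numbers, which all but fixes a shared sign, so they are a description only. Across all tested windows the TNFa change correlated at -0.604 with the difference of replicate 2 over replicate 1, both measured in the same libraries.

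**Figure D5:**
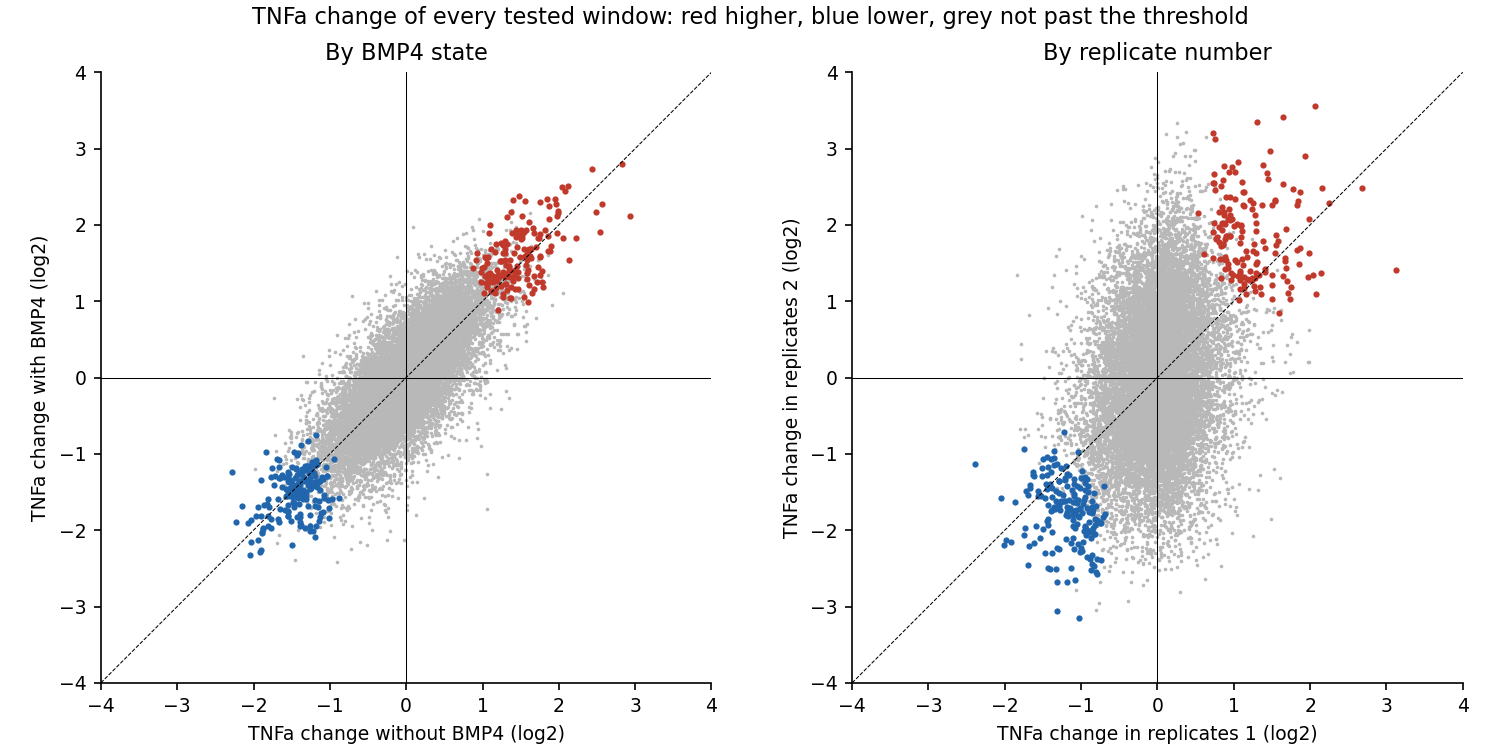
TNFa change (log2) of every tested window without against with BMP4 (left) and in replicates 1 against replicates 2 (right); red and blue windows passed the test of the main effect, and the dashed line marks equal change. The left cloud follows the line (77.6% of windows with the same sign), and the right one stands upright (56.98%).

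Of the 43 named windows that passed, 11 passed in 6 of the 8 fits that left out 1 library, the most for any of them: those of Pdgfb, Mapt, Gdnf, Herc1, Rassf6, Llph and 1700028E10Rik among the higher and Marchf6, Speer5-ps1, Dlc1 and Tom1l2 among the lower. In the other 2 fits, without TNFa or BMP4 replicate 2, none of the 43 passed. The Nfkbia and Nfkb2 windows passed in 4 and 3 of the 8 fits, and those of Bbc3 and Ccn2 in 2.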

How the data were processed

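Reads were handled with Trimmomatic 0.39, Bowtie2 2.5.1, Picard 2.25.1, HOMER 4.11 and deepTools 3.5.1 on mm10, per the submitters' processing notes; no source used here says whether reads were shifted for the transposase. HOMER called windows of 125 bp on both replicates of a group pooled, against the background libraries, and the authors kept those with a log2 fold over background of at least 1 and an adjusted p-value of up to 0.05, per the file headers. Although the headers speak of tag counts, the authors deposited rlog values (a shrunken log2 scale of DESeq2), made for each list alone and so not comparable between lists. Tags were recovered by solving the rlog equation with 4 constants per list. Of the values, 99.33% to 100.00% fell within 0.1 of a whole number (25.7% to 35.6% with constants moved by 5%). Background values were compared only in windows with the same start in the untreated list and another list. There, 100% of 37538 were equal.

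Tags were scaled by trimmed means of M-values. Windows with at least 10 tags in 2 libraries and 15 in all were fitted with limma 3.58.1 (R 4.3.3; trend, two-sided, Benjamini-Hochberg over 14712 windows, pseudocount 2), with TNFa, BMP4 and replicate as terms. Same-numbered libraries deviated together (correlations of 0.104 to 0.761 across windows), and the labels do not say what a number shares. Genes are the files' nearest genes, 8423 of 8528 under official RefSeq symbols. Named windows are the 14 smallest p per direction, the 3 smallest per list and for the interaction, with 1 per gene, and every tested window of Nfkbia, Tnfaip3, Ccl2, Icam1, Vcam1, Pdgfb, Mapt, Runx2 and Vgll4. Members, lists and rules were chosen with earlier results of these data known. No genome was used, so sequences and motifs come from RefSeq promoters. Alternatives were other scalings, pseudocounts, filters, matching distances, depths, terms and left-out libraries. The fit was also run on simulated data, whose outcome is not given here and is no support for the calls.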

Additional observations from a re-analysis of the deposited data

How the results depend on the processing

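Without the replicate block, 0 windows passed (0 higher, 0 lower; smallest adjusted p 0.288), and with the share of tags as a covariate, an alternative chosen after seeing the data, also 0 (0 and 0; 0.323). With the interaction term kept in the fit, likewise added later, 122 passed (68 higher, 54 lower). Matching starts within 20 bp gave 180 of 10011 windows tested (80 and 100), and identical starts 40 of 2914 (20 and 20); fewer windows were tested. Deposited rlog values mapped through the background gave 1009 (552 and 457), and 15 for TNFa in the presence of BMP4. Thinning every library to the smallest gave 245 (138 higher, 107 lower). Scaling by total tags gave 441, of which 27% were higher (119 and 322) against 46.5%, as the median of all windows moved to -0.15. The causes of these moves were not tested. With 1 library left out, the count ranged from 0 to 1161, the higher from 0 to 575 and the lower from 0 to 586; TNFa without BMP4 ranged from 0 to 14, TNFa with BMP4 from 0 to 1412 and the interaction from 0 to 5, the highest 3 of these without replicate 1 of both ligands, where the lone library left is assumed to vary like the other groups. Voom weights, the other scalings, pseudocounts 0.5 and 8, both filters and, added later, windows with whole values gave 303 to 377. No called window changed sign in any of them, which the choice of these windows on the same libraries all but fixes.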
